A study of Rattus norvegicus with 12 samples.

Results

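The genes described here encode proteins of blood clotting and clot removal that the liver makes. They are prothrombin (F2), the coagulation factors V, VII, IX, X and XII (F5, F7, F9, F10 and F12), protein C (Proc), antithrombin (Serpinc1) and plasminogen (Plg). All probes whose gene name on the array was one of these 9 symbols were taken, and this gave 11 probes for 8 genes among 41012 probes in all. No probe carries the name F9. A probe whose description names coagulation factor IX is given beside the members and was not counted with them. Of the 11 probes, 10 passed the filter on dim probes, and the 8 genes were then tested among 24296 genes.

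Coagulation is a cascade in which each protease activates the next. Tissue factor and factor VII start it, factor XII starts it on contact with foreign surfaces, and factor X with its cofactor factor V converts prothrombin to thrombin, which cleaves fibrinogen. Antithrombin inhibits thrombin and factor X, activated protein C inactivates factor V, and plasminogen is the precursor of the protease that dissolves fibrin. Hepatocytes secrete these proteins, and prothrombin, factors VII, IX and X and protein C need a vitamin K-dependent carboxylation.

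The arrays measured liver RNA of adrenalectomized Sprague-Dawley rats, which lack their own adrenal glucocorticoid. The 4 groups of 3 arrays were males given dexamethasone, a synthetic glucocorticoid, males given vehicle, females given dexamethasone and females given vehicle. Dexamethasone was injected into the peritoneum at 1 mg/kg and the vehicle was 400 µl of phosphate-buffered saline; livers were taken 6 h later from rats 8 to 10 weeks old, the females in diestrus 1. Each array held the pooled RNA of 3 animals, so that 9 animals stood behind a group, and the spread between arrays is one between pools. In bulk liver RNA, fewer cells of a type and less RNA per cell cannot be told apart.

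F7 and F10, 2 of 8 members, had arrays free of overlap between the sexes after dexamethasone, where 23.2% of all genes had. That share is similar, and the choice of these members for display rests on it alone. The 60-base probes that measured F7 and F10 are shown first. Each reads through without a stop codon in at least 1 forward frame.
F7 probe: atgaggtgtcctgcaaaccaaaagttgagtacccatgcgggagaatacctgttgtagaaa
F10 probe: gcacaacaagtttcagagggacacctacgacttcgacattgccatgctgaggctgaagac

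F7 and F10 lie next to each other on chromosome 16 in RefSeq's annotation of the rat assembly GRCr8, with only a pseudogene between them. Their start-site regions, from 250 bases before to 50 bases after the annotated start, are given here because their values moved together over the 12 arrays (r = 0.80). By the brightest probe of each gene, members on different chromosomes had higher correlations, namely F2 and F12 (r = 0.87), Serpinc1 and Plg (r = 0.85) and F5 and F12 (r = 0.82). The F7 and F10 regions come from RefSeq with build GRCr8. The F7 region is chr16:83202689-83202988 on the minus strand and the F10 region is chr16:83190231-83190530 on the minus strand, both written 5′ to 3′ on that strand. Capitals mark a match to any of 4 motifs searched on both strands.
F7 region: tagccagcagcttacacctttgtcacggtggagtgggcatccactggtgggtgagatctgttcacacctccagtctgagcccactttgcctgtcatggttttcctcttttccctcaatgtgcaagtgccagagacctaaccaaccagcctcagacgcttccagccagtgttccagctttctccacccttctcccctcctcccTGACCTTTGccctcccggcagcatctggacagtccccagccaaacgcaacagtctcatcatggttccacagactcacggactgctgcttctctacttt
F10 region: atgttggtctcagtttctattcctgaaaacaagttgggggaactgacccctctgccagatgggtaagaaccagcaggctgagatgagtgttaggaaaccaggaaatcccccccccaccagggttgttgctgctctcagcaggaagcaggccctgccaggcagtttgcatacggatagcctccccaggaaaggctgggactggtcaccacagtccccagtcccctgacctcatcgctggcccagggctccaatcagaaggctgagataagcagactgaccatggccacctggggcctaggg
The motifs were AGAACA (bound by the glucocorticoid receptor), CAAAGNNCA (HNF4), GTTAAT (HNF1) and TTCNNNGAA (STAT5). The F7 region held 1 match, an HNF4 motif on the opposite strand whose first base lies 48 bases before the start site, and the F10 region held none of the 4. Over the regions of 33469 genes in the table, 20.7% held AGAACA, 6.08% held CAAAGNNCA, 7.45% held GTTAAT and 8.87% held TTCNNNGAA. Among the 9 members' regions, AGAACA occurred in that of F2, CAAAGNNCA in those of F7 and F9, GTTAAT in those of F2, Proc and Plg, and TTCNNNGAA in that of F9.

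All values below are log2 of the array's processed signal minus that array's 75th percentile, and a difference of 1 is a 2-fold change. A gene was called changed at a Benjamini-Hochberg adjusted p under 0.05 in limma, over all 24296 genes. All 6 hepatocyte markers (Alb, Ttr, Apoa1, Tf, Serpina1 and Apob) were well above background, with summed linear levels from 3889 to 5265 in dexamethasone-treated males and 2773 to 5154 in vehicle males, and from 4918 to 5489 in dexamethasone-treated females and 3645 to 4730 in vehicle females. The 12 arrays were on 5 slides, and slide 5 held replicate 3 of every group. Replicates 1 and 2 of the dexamethasone-treated females were alone on slide 4, and replicate 1 of the vehicle males was alone on slide 3. Slide 2 held replicates 1 and 2 of the vehicle females and replicate 2 of the dexamethasone-treated males. Slide 1 held replicate 1 of the dexamethasone-treated males and replicate 2 of the vehicle males. Outside slide 5, slide cannot be told apart from treatment in females or from sex after dexamethasone. The vehicle males and vehicle females also shared no slide outside slide 5. There they were linked only through the dexamethasone-treated males on slides 1 and 2. On slide 5, 53.0% to 61.8% of the spots were well above background, against 62.7% to 69.7% on the other slides.

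Slide 5 stood apart for most of the members, and this sets how finely they could be compared. F2, F5, F12 and Proc were higher on slide 5 than on the other 2 arrays of the group in 4 of 4 groups, by 0.43, 0.43, 0.48 and 0.58 on average. Plg was lower there in 4 of 4 groups, with an average offset of -0.61. F7 and F10 had the smallest average offsets, -0.11 and 0.0095, but these average over groups that moved in opposite directions. F7 ran from -0.60 in vehicle males to 0.29 in dexamethasone-treated females. F10 ran from -0.28 in vehicle females to 0.51 in dexamethasone-treated females. Serpinc1 averaged -0.42, from -1.20 in vehicle females to 0.36 in dexamethasone-treated females. The dimmer F12 probe, unlike the brighter one, averaged -0.28 and was higher on slide 5 in only 1 of 4 groups. Over all genes, 38.8% lay on the same side in all 4 groups and 29.1% had an average offset of at least 0.5 in size.

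**Figure D1:**
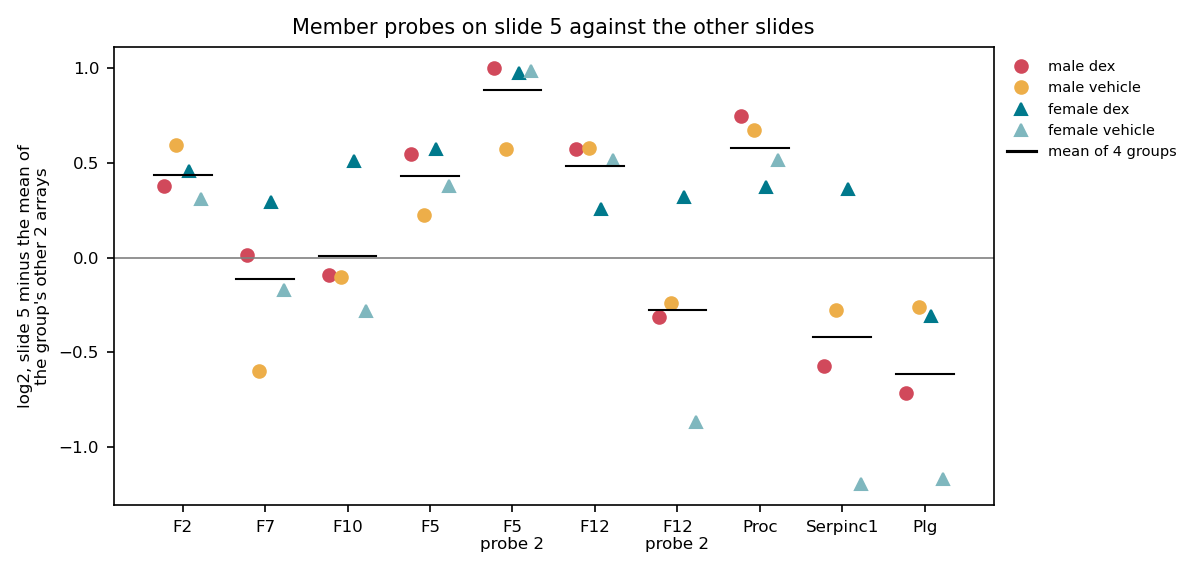
Each point is a group's array on slide 5 minus the mean of its other 2 arrays, on the log2 scale, for each member probe above the filter, and bars are means over the 4 groups. F2, both F5 probes, the brighter F12 probe and Proc lie above 0 in all 4 groups, and Plg lies below 0 in all 4.

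Dexamethasone left no member past the threshold in either sex. In males 0 of 8 members were called, where 20.1% of all genes were, and in females 0 of 8, where 24.3% of all genes were. Averaged over the sexes the count was again 0 of 8 against 33.9% of all genes. None of the 8 reached an unadjusted p under 0.05 in these 3 comparisons either, against 31.7%, 37.3% and 42.7% of all genes. The median difference of the members was -0.033 in males and 0.037 in females, against 0.0080 and -0.074 over all genes. No member had arrays free of overlap between dexamethasone and vehicle, in either sex, where 35.2% of all genes in males and 43.1% in females had.

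**Figure D2:**
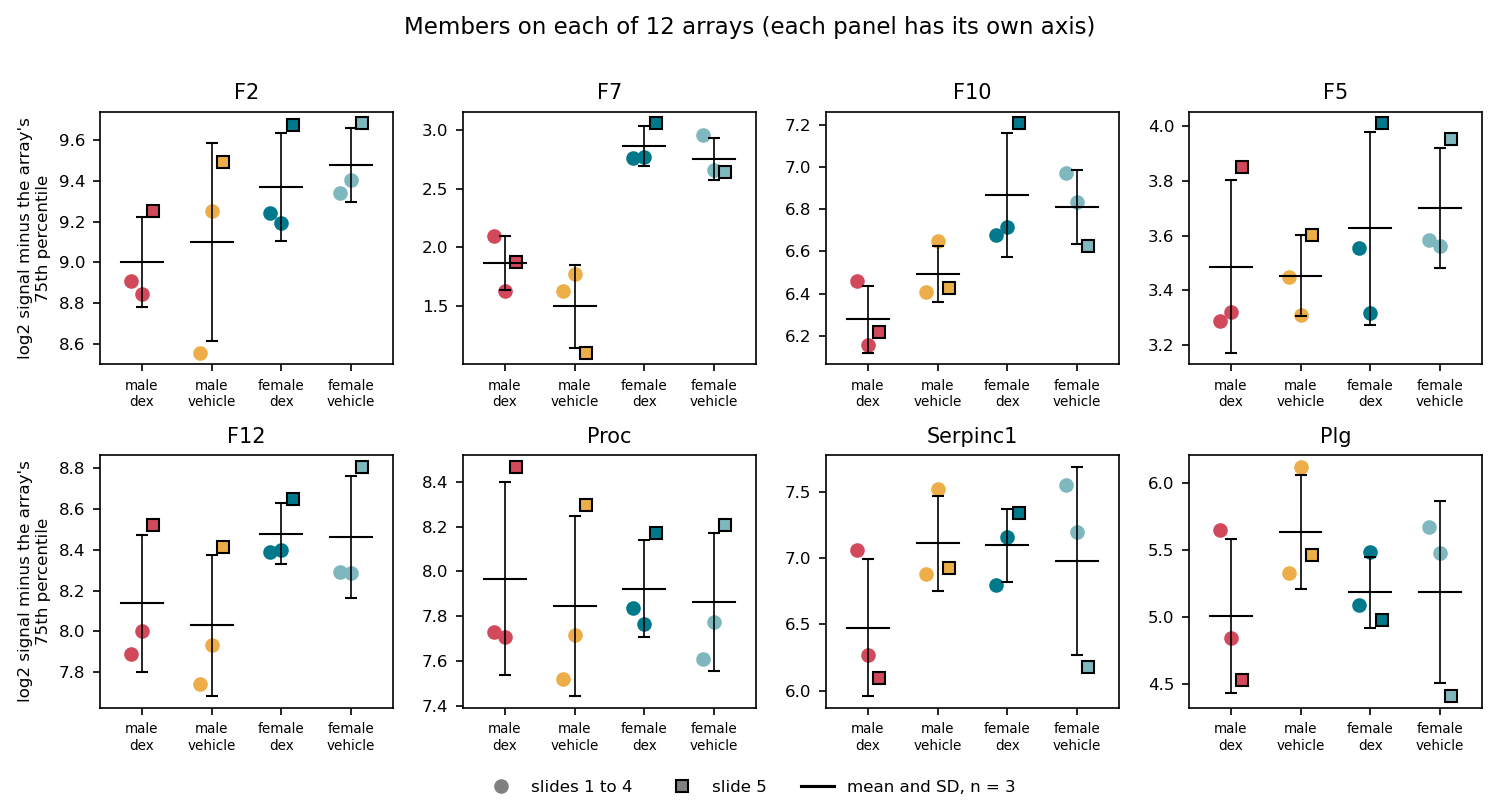
Each panel shows a member on its own axis, as log2 signal minus the array's 75th percentile, on the 3 arrays of each group; squares are arrays of slide 5, bars are the mean and SD. F7 separates the female from the male arrays, and no member separates dexamethasone from vehicle.

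Among the vitamin K-dependent factors, F2 encodes prothrombin, the precursor of thrombin. F2 read 8.91, 8.84 and 9.25 on the arrays of dexamethasone-treated males, against 8.56, 9.25 and 9.50 on those of vehicle males. It read 9.24, 9.20 and 9.68 in dexamethasone-treated females, against 9.34, 9.41 and 9.68 in vehicle females. The groups overlapped in both sexes, and the differences were -0.10 ± 0.25 in males and -0.11 ± 0.25 in females (± SE throughout).

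F7, the protease that tissue factor activates, gave the highest member value in the male comparison. It read 2.10, 1.63 and 1.88 in dexamethasone-treated males, against 1.63, 1.78 and 1.10 in vehicle males. In females it read 2.76, 2.76 and 3.05 after dexamethasone, against 2.96, 2.66 and 2.64 after vehicle. The differences were 0.37 ± 0.21 in males (95% interval -0.10 to 0.83, limma adjusted p = 0.274) and 0.11 ± 0.21 in females (-0.36 to 0.57, adjusted p = 0.750).

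F10, the protease that converts prothrombin, read 6.46, 6.16 and 6.22 in dexamethasone-treated males, against 6.41, 6.65 and 6.43 in vehicle males. In females it read 6.68, 6.72 and 7.21 after dexamethasone, against 6.97, 6.83 and 6.62 after vehicle. Its differences were -0.22 ± 0.19 in males and 0.057 ± 0.19 in females, the narrowest 95% intervals among the members (-0.63 to 0.20 and -0.35 to 0.47).

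The probe described as coagulation factor IX read 2.10, 1.64 and 1.74 in dexamethasone-treated males, against 2.08, 2.29 and 2.15 in vehicle males. It read 2.21, 2.06 and 1.94 in dexamethasone-treated females, against 1.89, 2.07 and 2.03 in vehicle females. The male arrays overlapped by a narrow margin and the difference there was -0.35 ± 0.16 (limma adjusted p = 0.170); in females it was 0.073 ± 0.16.

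F5, the cofactor of factor X, was measured by a bright and a dim probe. The brighter one read 3.29, 3.32 and 3.85 in dexamethasone-treated males, against 3.45, 3.31 and 3.60 in vehicle males. In females it read 3.55, 3.32 and 4.01 after dexamethasone, against 3.58, 3.56 and 3.95 after vehicle. Its differences were 0.033 ± 0.23 and -0.073 ± 0.23. The dimmer F5 probe gave -0.28 ± 0.40 in males and 0.52 ± 0.40 in females, neither past the threshold, and its signs were opposite to those of the brighter probe.

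F12, the factor that starts the contact phase, also had a pair of probes. The brighter one read 7.89, 8.00 and 8.52 in dexamethasone-treated males, against 7.74, 7.93 and 8.41 in vehicle males, and 8.39, 8.40 and 8.65 in dexamethasone-treated females, against 8.29, 8.29 and 8.81 in vehicle females. In each group the array of slide 5 was the highest. The differences were 0.11 ± 0.24 in males and 0.017 ± 0.24 in females for the brighter probe, and -0.33 ± 0.27 and 0.33 ± 0.27 for the dimmer one.

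The inhibitors behaved differently from each other across arrays. Proc encodes protein C, which inactivates factors V and VIII. It read 7.73, 7.71 and 8.47 in dexamethasone-treated males, against 7.52, 7.72 and 8.30 in vehicle males, and 7.84, 7.76 and 8.17 in dexamethasone-treated females, against 7.61, 7.77 and 8.21 in vehicle females. The differences, 0.12 ± 0.28 and 0.059 ± 0.28, were smaller than the step to slide 5 within each group.

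Serpinc1 encodes antithrombin, the main circulating inhibitor of thrombin and factor X. It read 7.06, 6.27 and 6.09 in dexamethasone-treated males, against 6.88, 7.53 and 6.93 in vehicle males. In females it read 6.80, 7.16 and 7.34 after dexamethasone, against 7.56, 7.20 and 6.18 after vehicle. The male difference of -0.64 ± 0.37 was the lowest among the members (95% interval -1.47 to 0.19, limma adjusted p = 0.287), and the female one was 0.12 ± 0.37. The other Serpinc1 probe was well above background on only 1 of 12 arrays and gave no usable level.

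Plg, the precursor of the fibrin-dissolving protease, resembled Serpinc1 across arrays. It read 5.65, 4.84 and 4.53 in dexamethasone-treated males, against 5.32, 6.12 and 5.46 in vehicle males. In females it read 5.09, 5.48 and 4.97 after dexamethasone, against 5.67, 5.48 and 4.40 after vehicle. The differences were -0.63 ± 0.39 in males (95% interval -1.49 to 0.22, limma adjusted p = 0.308) and -0.0018 ± 0.39 in females. Serpinc1 and Plg had a correlation of 0.85 over the 12 arrays, which share groups and slides.

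With slide as a block in the same limma fit, the male difference was -0.82 for Serpinc1 (adjusted p = 0.0991) and -0.85 for Plg (adjusted p = 0.0700). The female difference was 0.81 for Serpinc1 and 0.27 for Plg. Slide 4 held no other group, so in this block fit the dexamethasone-treated females rest on their slide 5 array alone. The same holds for every value below from a fixed slide block that involves these females. Values within slide 5 use that same array and are no separate check. Its deviations from the group mean correlated with those of the other slide 5 arrays at 0.18 to 0.22. Those other arrays correlated with each other at 0.50 to 0.59. Within slide 5, where each group had 1 array, the male differences were -0.83 and -0.93 and the female ones 1.16 and 0.57. Within slide 1, which held 1 dexamethasone and 1 vehicle array of males, they were -0.46 and -0.48. With the slide block the other 6 members lay between -0.30 (F2) and 0.50 (F7) in males and between -0.14 (F12) and 0.48 (F10) in females, and none was called.

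**Figure D3:**
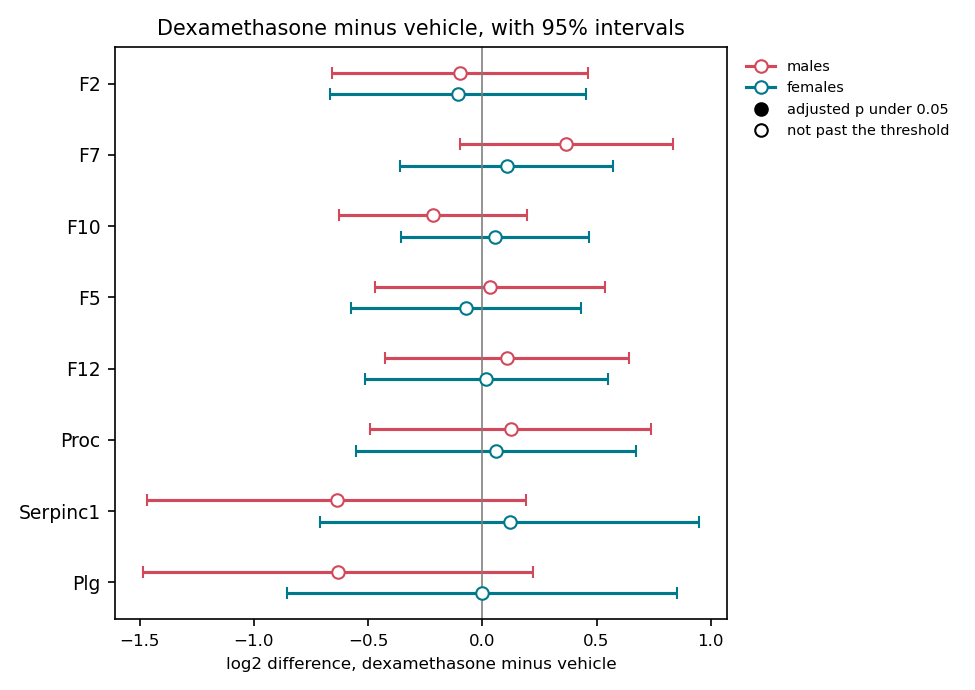
Points are limma log2 differences, dexamethasone minus vehicle, in males and females (3 arrays against 3 in each), with 95% intervals; open points did not pass the threshold. All 16 intervals cross 0, and those of Serpinc1 and Plg are the widest.

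The male and female responses of the members could not be told apart by the test of their difference. The female minus the male effect was called for 0 of 8 members, and for 0.0288% of all genes, with no member at an unadjusted p under 0.05. It was 0.76 ± 0.53 for Serpinc1 (95% interval -0.41 to 1.93) and 0.63 ± 0.54 for Plg (-0.58 to 1.84). The other 6 members lay between -0.26 (F7) and 0.27 (F10), with a median of -0.036 over the 8 members and -0.053 over all genes.

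The sexes differed in F7. F7 was 2.38-fold higher in females than in males after vehicle (log2 difference 1.25 ± 0.21, 95% interval 0.78 to 1.72, limma adjusted p = 0.0130) and 1.99-fold higher after dexamethasone (0.99 ± 0.21, 0.52 to 1.46, adjusted p = 0.0391). The lowest female array, at 2.64, was above the highest male array, at 2.10. F7 was the 1 of 8 members called after vehicle, where 1.7% of all genes were called, and the 1 of 8 called after dexamethasone, where 2.29% were. Its arrays were free of overlap between the sexes after vehicle, as were those of 15.6% of all genes.

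The call after vehicle was lost without female vehicle replicate 1 (adjusted p = 0.0664). The F7 call after dexamethasone was lost on leaving out any of 9 of the 12 arrays, with adjusted p-values up to 0.149 without male dexamethasone replicate 2; it held without male vehicle replicate 2, male vehicle replicate 3 or female vehicle replicate 3. With slide as a block the F7 difference was 1.54 after vehicle (limma adjusted p = 0.0358). After dexamethasone it was 1.36, with the female level resting on the slide 5 array alone. Within slide 5 the differences were 1.54 after vehicle and 1.18 after dexamethasone.

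F10, the neighbour of F7, gave a log2 difference of 0.59 ± 0.19 in females minus males after dexamethasone (95% interval 0.18 to 1.00), and the arrays of the 2 groups were free of overlap, as they were for 23.2% of all genes. Its limma adjusted p was 0.154 and its unadjusted p 0.00949, so it did not pass the threshold. After vehicle the difference was 0.32 ± 0.19 (adjusted p = 0.663) and the arrays overlapped. With slide as a random block F10 was called after dexamethasone (0.80, adjusted p = 0.0355), and with a fixed slide block it was not (1.06, adjusted p = 0.0558). Within slide 5 the F10 differences were 0.99 after dexamethasone and 0.20 after vehicle.

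Proz, the gene of protein Z, lies on the other side of F10 and gave 0.31 ± 0.18 after vehicle and 0.29 ± 0.18 after dexamethasone in females minus males, neither called (limma adjusted p = 0.645 and 0.476). On the far side of F7, Mcf2l gave 0.58 ± 0.57 and 0.062 ± 0.57, and was not called.

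The remaining members were not called between the sexes. By the brightest probe of each gene, 7 of the 8 members were higher in females than in males after dexamethasone. The median was 0.36 over the members and -0.027 over all genes. After vehicle 6 of 8 were higher, with a median of 0.28 against 0.034. F2 differed by 0.37 ± 0.25 after dexamethasone and 0.38 ± 0.25 after vehicle, and F12 by 0.34 ± 0.24 and 0.43 ± 0.24. F5 differed by 0.14 ± 0.23 and 0.25 ± 0.23, and Proc by -0.045 ± 0.28 and 0.020 ± 0.28. The dimmer probes of F12 and F5 were higher in females after dexamethasone (0.58 ± 0.27 and 0.62 ± 0.40). After vehicle they went the other way (-0.070 ± 0.27 and -0.18 ± 0.40), and none of these was called. Serpinc1 differed by 0.62 ± 0.37 after dexamethasone and -0.13 ± 0.37 after vehicle, and Plg by 0.18 ± 0.39 and -0.45 ± 0.39.

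**Figure D4:**
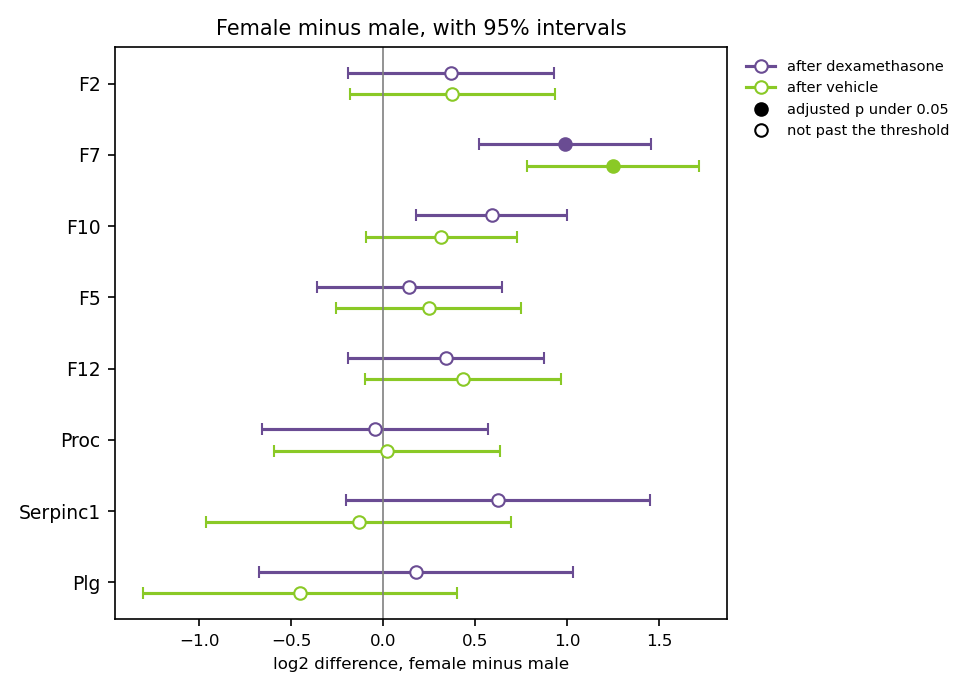
Points are limma log2 differences, female minus male, after dexamethasone and after vehicle (3 arrays against 3 in each), with 95% intervals; filled points passed the threshold. Only the F7 points, at 0.99 and 1.25, are filled.

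Over the 12 arrays the members, each by its brightest probe, fell into patterns rather than moving as 1 group. F12 and Proc deviated from their group means almost alike (r = 0.98), F2 and Proc did so with r = 0.86, and Serpinc1 and Plg with r = 0.92, while F5 and Plg had r = -0.74. These arrays share groups and slides, so the correlations are descriptions. The pattern of F12 is that of its brighter probe only. Its dimmer probe had an average slide 5 offset of -0.28, against 0.48 for the brighter one. The genes with a symbol most like F7 over the 12 arrays were Bri3bp (r = 0.95) and Faap20 (r = 0.94), and those most like F10 were Hexa (r = 0.96) and Ap1b1-ps1 (r = 0.95). F2 was most like Adh1c (r = 0.95) and Neu1 (r = 0.92), F5 most like Plpp3 (r = 0.96) and Ndufb2 (r = 0.94), and F12 most like Scube3 (r = 0.97) and Fabp1 (r = 0.96). Proc was most like Cul5 (r = 0.96) and Wbp4 (r = 0.96), Serpinc1 most like Rdh11 (r = 0.97) and Gjb1 (r = 0.97), and Plg most like Kidins220 (r = 0.97) and Hat1 (r = 0.97).

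Around the members, the gene of tissue factor rose after dexamethasone. In the tissue factor list, 1 of 2 measured genes rose in each sex, where 20.1% of all genes in males and 24.3% in females were called in either direction. F3, which encodes tissue factor, read 0.33, 0.12 and -0.20 in dexamethasone-treated males, against -1.58, -2.25 and -2.85 in vehicle males, and -0.23, -0.28 and -0.80 in dexamethasone-treated females, against -2.22, -2.28 and -2.56 in vehicle females. The groups did not overlap, and F3 rose 4.97-fold in males (2.31 ± 0.30, limma adjusted p = 4.65e-04) and 3.77-fold in females (1.91 ± 0.30, adjusted p = 0.00140). With normexp background correction the F3 differences were 1.44 and 1.04, both still called. Tfpi, the inhibitor of the tissue factor complex, gave -0.33 ± 0.31 and -0.31 ± 0.31.

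Of 9 measured fibrinolysis genes analysed here, 0 rose and 1 fell in males, and 0 rose and 4 fell in females, where 20.1% and 24.3% of all genes were called in either direction. The list medians were -0.43 and -0.60, against 0.0080 and -0.074 over all genes. Anxa2, a cell-surface receptor for plasminogen and its activator, fell in males (-0.71 ± 0.22, limma adjusted p = 0.0473) and in females (-0.81 ± 0.22, adjusted p = 0.0249). In females Serpinf2, the gene of alpha 2-antiplasmin, fell by 0.70 ± 0.15 (adjusted p = 0.00847) on its brighter probe, while its other probe gave -0.32 and was not called; with slide as a block the brighter probe was not called either (adjusted p = 0.0652). Klkb1 (-1.56 ± 0.40) and S100a10, the partner of Anxa2 (-0.60 ± 0.16, adjusted p = 0.0234), also fell in females. With slide as a block the Klkb1 difference was -2.51 and within slide 5 it was -2.59, while scaling on the array median (-1.36, adjusted p = 0.0505) and leaving out slide 5 (-1.05, adjusted p = 0.0793) ended its call. The S100a10 call ended without any 1 of the female dexamethasone arrays, female vehicle replicate 1 or female vehicle replicate 3 (adjusted p up to 0.0682 without female dexamethasone replicate 3). Leaving out 1 array ended the male Anxa2 call for every array but male dexamethasone replicate 1 and female dexamethasone replicate 3 (adjusted p up to 0.150 without male dexamethasone replicate 3). It ended the female Anxa2 call for female vehicle replicate 1 (adjusted p = 0.0881) and female dexamethasone replicate 3, and the Klkb1 call for female dexamethasone replicate 2 (adjusted p = 0.0699), female dexamethasone replicate 3 and female vehicle replicate 3. For Serpinf2, male vehicle replicate 1 had no usable value and was left out of its fit.

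In the contact phase and intrinsic pathway list, 2 of 6 measured genes fell in males, 1 fell in females and 4 fell on average over the sexes, where 20.1%, 24.3% and 33.9% of all genes were called in either direction. The 4 were Klkb1, which the fibrinolysis list also counts, Kng1, Kng2 and Vwf. On average Vwf fell by 0.43 ± 0.14 (limma adjusted p = 0.0411), and this call held in only 10 of 25 alternatives. Klkb1, the gene of plasma prekallikrein, read 4.67, 3.67 and 3.64 in dexamethasone-treated females, against 4.96, 5.48 and 6.23 in vehicle females. The male Klkb1 arrays read 4.06, 3.89 and 4.66 after dexamethasone, against 4.84, 5.23 and 5.78 after vehicle, and the difference of -1.08 ± 0.40 was not called (limma adjusted p = 0.0857). The kininogen genes Kng1 and Kng2 fell in males, by 1.15 ± 0.31 and 1.07 ± 0.31 (limma adjusted p = 0.0236 and 0.0362). These near-identical copies can share signal, so each is uncertain by itself. Leaving out male dexamethasone replicate 2, male dexamethasone replicate 3 or male vehicle replicate 2 ended both calls (adjusted p up to 0.0820 for Kng1 and 0.125 for Kng2, both without male dexamethasone replicate 3), and leaving out replicate 1 or 2 of either female group ended that of Kng2. F11, the next factor of this branch, gave -0.24 ± 0.21 in males and 0.51 ± 0.21 in females, not called in either.

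Kng1 and Kng2 also differed between the sexes after dexamethasone. Kng1 read 8.64, 8.69 and 8.85 in dexamethasone-treated females, against 7.37, 6.96 and 6.30 in dexamethasone-treated males, with a difference of 1.85 ± 0.31 (limma adjusted p = 0.0112). The Kng1 call was lost with quantile normalization (adjusted p = 0.0562) and without slide 5 (adjusted p = 0.0559). Kng2 gave 1.75 ± 0.31 (adjusted p = 0.0170), and leaving out any female dexamethasone array, or replicate 2 or 3 of the dexamethasone-treated males, ended its call (adjusted p up to 0.0666 without female dexamethasone replicate 3). After vehicle both were also higher in females, but not called. Kng1 averaged 9.17 in vehicle females against 8.03 in vehicle males (limma adjusted p = 0.133). Kng2 averaged 9.23 against 8.12 (adjusted p = 0.160). The female minus the male effect was 0.71 for Kng1 and 0.64 for Kng2, and neither was called.

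Among 11 measured genes of the protein C pathway and other anticoagulants, 1 rose and 2 fell in each sex, a share near that of all genes called (20.1% in males and 24.3% in females). These counts take Gas6 as a fall by its brightest probe, although its probes disagreed, as given below. A2m, a broad protease inhibitor of plasma, rose 6.29-fold in males (2.65 ± 0.55, limma adjusted p = 0.00666) and 11.3-fold in females (3.50 ± 0.55, adjusted p = 0.00137). With slide as a block the female A2m difference was 1.80 and no longer called (adjusted p = 0.0805). Serpina10, the inhibitor that acts with protein Z, fell in males by 0.80 ± 0.21 (adjusted p = 0.0214), and Anxa5, a phospholipid-binding anticoagulant, fell in females by 0.74 ± 0.20 (adjusted p = 0.0226). The Serpina10 call ended without replicate 2 or 3 of the dexamethasone-treated males or replicate 1 or 2 of the vehicle males (adjusted p up to 0.0795 without male dexamethasone replicate 3). The Anxa5 call ended without replicate 1 or 3 of the dexamethasone-treated females or replicate 1 or 2 of the vehicle females (adjusted p up to 0.0832 without female vehicle replicate 1), and with slide as a block (adjusted p = 0.0629).

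Gas6, a vitamin K-dependent ligand related to protein S, had 3 probes that disagreed. The brightest gave -2.30 ± 0.17 in males and -2.80 ± 0.17 in females, and another gave -2.44 and -2.60, all called. The remaining Gas6 probe rose by 3.20 ± 0.43 in males and 1.62 ± 0.43 in females (limma adjusted p = 5.65e-04 and 0.0208), so no single direction is given for the gene. After vehicle the brightest Gas6 probe was higher in females than in males (1.07, adjusted p = 0.00768), and its other probes were not called. With slide as a block (adjusted p = 0.0697), only the groups compared (0.0793) or slide 5 left out (0.0550), this call was lost. Pros1, the gene of protein S, gave -0.31 ± 0.21 and 0.20 ± 0.21, and Thbd, the gene of thrombomodulin, -0.12 ± 0.37 and -0.052 ± 0.37.

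The machinery that the vitamin K-dependent members need did not pass the test anywhere. Of 10 measured genes of the vitamin K cycle and secretory processing, 0 were called in males and 0 in females. Over all genes, 20.1% in males and 24.3% in females were called. The list medians were -0.049 and -2.2e-04, against 0.0080 and -0.074 over all genes. Ggcx, the gamma-carboxylase, gave -0.31 ± 0.28 in males and 0.31 ± 0.28 in females, and Vkorc1, the vitamin K epoxide reductase, -0.12 ± 0.21 and -0.086 ± 0.21. In the fibrinogen list, 0 of 4 measured genes were called in either sex, beside the same shares of all genes. Fga gave -0.096 and -0.094, Fgb 0.20 and -0.016, and Fgg -0.55 and -0.28.

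**Figure D5:**
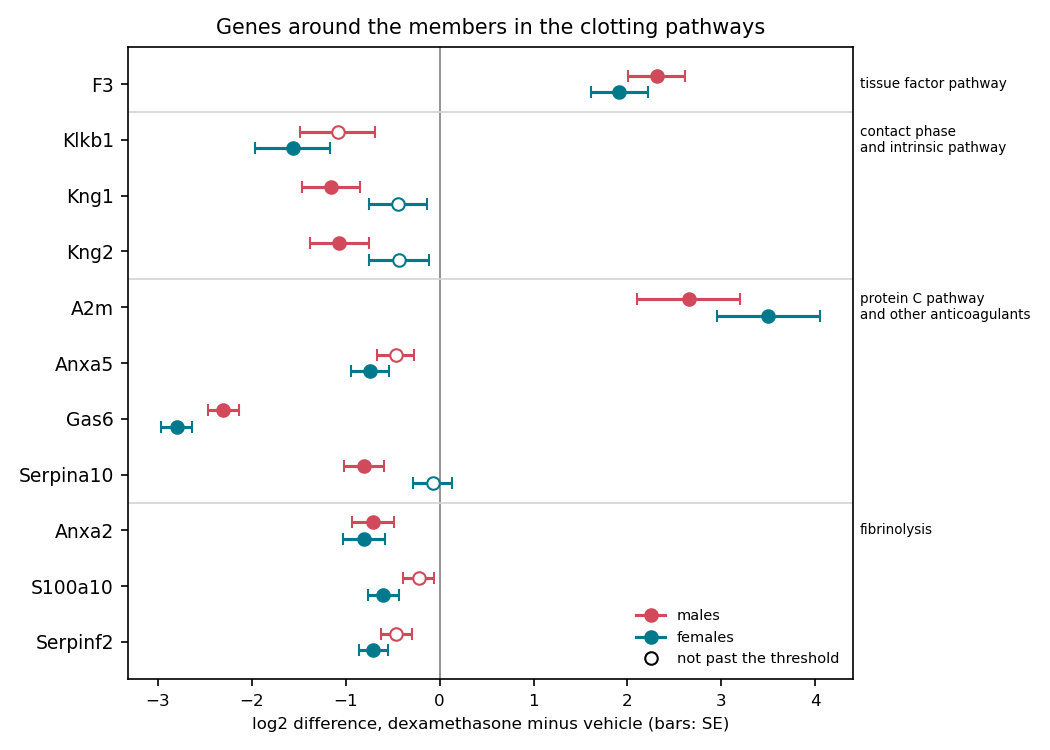
Points are limma log2 differences, dexamethasone minus vehicle, with SE, in males and females, for up to 4 genes a sex from each of 4 clotting lists, those with the largest called change; open points did not pass the threshold. F3 and A2m lie above 0 in both sexes, and the Gas6 points are those of its brightest probe.

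The summed levels of endothelial and stellate cell markers were lower after dexamethasone, and those of the other cell types compared here overlapped in at least 1 sex. Of 8 measured endothelial markers, 1 rose in males, and 1 rose and 1 fell in females. Of 5 measured stellate cell markers, 2 fell in males and 3 in females. Over all genes, 20.1% in males and 24.3% in females were called in either direction. The median difference of the endothelial markers was -0.25 in males and -0.53 in females. That of the stellate cell markers was 0.023 in males and -0.63 in females. The brightest markers weigh most in the sums, so a lower sum does not mean that every marker fell. The summed level of the 8 endothelial markers, on the linear scale, was 25.5 to 33.2 in dexamethasone-treated males, against 37.3 to 51.2 in vehicle males, and 11.8 to 28.0 in dexamethasone-treated females, against 44.9 to 72.0 in vehicle females. That of the 5 stellate cell markers was 16.9 to 19.1 in dexamethasone-treated males, against 21.9 to 26.1 in vehicle males, and 10.2 to 15.2 in dexamethasone-treated females, against 22.8 to 28.6 in vehicle females. That of 5 megakaryocyte and platelet markers, of which 0 were called, overlapped, at 1.23 to 1.47 in dexamethasone-treated males, against 0.894 to 1.57 in vehicle males, and 1.20 to 1.68 in dexamethasone-treated females, against 1.20 to 2.46 in vehicle females. The sum of 7 Kupffer cell and macrophage markers also overlapped, at 28.5 to 57.4 in dexamethasone-treated males, against 42.7 to 63.8 in vehicle males, and 24.4 to 56.4 in dexamethasone-treated females, against 45.2 to 75.2 in vehicle females. So did that of 4 erythroid markers, at 13.9 to 20.7 in dexamethasone-treated males, against 17.7 to 23.7 in vehicle males, and 7.75 to 18.2 in dexamethasone-treated females, against 11.7 to 23.7 in vehicle females. That of 5 bile duct markers was 1.59 to 2.22 in dexamethasone-treated males, against 2.69 to 4.32 in vehicle males, and overlapped in females, at 1.14 to 1.68 after dexamethasone, against 1.46 to 2.55 after vehicle. The part of these cells in the changes of F3, Anxa2, Anxa5 and Gas6 was not tested.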

How the data were processed

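Liver RNA was hybridized with Cy3 to single-colour Agilent rat arrays, 500 ng per array, per the labels' protocols. The authors deposited spot intensity values from Agilent Feature Extraction 9.1 (9.1.3.1 per the file headers), already background-subtracted and detrended. Their deposited value table holds log10 values whose scaling is not stated in the sources used here. It correlated with the scanner signals at 0.9964 or more and served as an alternative.

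From the scanner files of 12 arrays, log2 of the processed signal minus the array's 75th percentile was taken. Control spots (1639) and 211 spots flagged as outliers were left out, and no spot was saturated. A probe was kept if 3 or more of the 12 arrays showed it well above background and each group had 2 or more usable values (28173 probes), and the brightest stood for its gene (24296 genes, 12116 with a symbol). Gene symbols were updated through the RefSeq table where possible (20371 of 41012 probes matched). A limma 3.58.1 model with 4 group means (R 4.3.3, 8 residual degrees of freedom plus 2.39 from empirical Bayes) gave 6 contrasts, each with Benjamini-Hochberg adjustment over all genes. The fit was tested on simulated data with independent noise on each array. That simulation had no slides, so it cannot show how the fit behaves with shared slides. Figures used matplotlib 3.10.9 under Python 3.11.15. The number of arrays limits the precision.

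The slide was read from the scanner files. The highest correlation of 2 arrays was 0.991 and no pair was identical. Alternatives covered background correction, scaling, filters, probes, slide and replicate blocks, the arrays fitted and each array left out; the 2 on slide 5 were chosen after seeing the data. The members and lists were chosen with earlier results of these data known. Named genes were the members, up to 4 called genes per pathway list and contrast by size of change, and the 2 genes with a symbol most correlated with each member; genes given with a result that was not called were picked by their role. Some results are not reported here.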

Additional observations from a re-analysis of the deposited data

How the results depend on the processing

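No member was called for dexamethasone in males, in females or on average, or for the female minus the male effect, under any of the alternatives run. Across members, the sign differed from the reported one in 15 of 208 values in males, 34 of 208 in females, 20 of 200 on average and 30 of 200 for the female minus the male effect. The number of members called for females over males after dexamethasone was 0 with no filter on dim probes, with a slide block, with only the groups compared and without slide 5, and 2 with slide as a random block (F7 and F10). After vehicle it was 0 with only the groups compared and without slide 5. Leaving out each array in turn, both counts ranged from 0 to 1. The cause of these shifts was not tested. Some of these alternatives also fitted fewer arrays or more genes. F7 stayed higher in females under every alternative, between 1.05 and 1.54 after vehicle and between 0.87 and 1.36 after dexamethasone. Its adjusted p after dexamethasone was 0.0778 with no filter, 0.0743 with only the groups compared and 0.0764 without slide 5; after vehicle it was 0.132 with only the groups compared and 0.0910 without slide 5. Another scaling moved the median of all genes in females to 0.13 with the array median, against -0.074. Same-numbered arrays did not all deviate together. Correlations ran from -4.1e-04 to 0.33 for number 1 and from -0.0026 to 0.36 for number 2. For number 3, which is slide 5, they ran from 0.18 to 0.59. The slide 5 array of the dexamethasone-treated females correlated with the others there at 0.18 to 0.22, and those with each other at 0.50 to 0.59. With the replicate block F7 gave an adjusted p of 0.0208 after vehicle and 0.0436 after dexamethasone, and no count of members called changed. All member probes above the filter were well above background on 12 of 12 arrays. Over all genes, the count called for dexamethasone in males was 7748 with slide as a random block, against 4884. In females it was 3079 with a slide block and 3740 without female dexamethasone replicate 2, against 5915. For females over males after dexamethasone it was 916 with the random block, 847 with the replicate block, 1196 with slide 5 as a block, 840 without slide 5 and 299 at the lowest with 1 array left out, against 556. After vehicle it was 253 with a slide block, 653 with the random block, 160 with only the groups compared, 681 with slide 5 as a block, 261 without slide 5 and 261 without female vehicle replicate 1, against 414. For the female minus the male effect it lay between 0 and 36, against 7.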

Other observations

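Of 35 measured genes of other hepatocyte plasma proteins, 1 rose and 4 fell after dexamethasone in each sex, where 20.1% of all genes in males and 24.3% in females were called. The list had medians of -0.18 in males and -0.17 in females. Orm1, the acute phase protein orosomucoid, rose 8.27-fold in males (3.05 ± 0.46, limma adjusted p = 0.00117) and 6.48-fold in females (2.70 ± 0.46, adjusted p = 0.00223; 0.0501 with slide as a block). C4bpa, the alpha chain of the complement C4-binding protein that carries protein S in human plasma, read 7.18, 7.21 and 7.22 in dexamethasone-treated males, against 7.78, 8.19 and 8.24 in vehicle males, and fell by 0.87 (adjusted p = 0.00536). In females C4bpa fell by 0.83 (adjusted p = 0.00623; 0.0519 with slide as a block). Mbl2, the mannose-binding lectin, fell by 1.38 in males and 0.83 in females, and the female call was lost with slide as a block (-0.51, adjusted p = 0.487) and on leaving out any female dexamethasone array, replicate 1 or 2 of the vehicle females or male vehicle replicate 2 (adjusted p up to 0.131 without female dexamethasone replicate 1).

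Of 12 measured liver-enriched transcription factors, 2 rose and 3 fell in males, and 2 rose and 2 fell in females, beside the same 20.1% and 24.3% of all genes. Foxa2 read 1.74, 1.49 and 2.01 in dexamethasone-treated males, against 4.75, 3.44 and 5.06 in vehicle males, and fell by 2.67 ± 0.35 (limma adjusted p = 5.19e-04). In females Foxa2 read 2.55, 2.28 and 2.36 after dexamethasone, against 4.61, 4.58 and 4.23 after vehicle, and fell by 2.08 ± 0.35. Onecut1 fell by 2.15 ± 0.49 in males, and Foxa1 rose by 1.47 ± 0.17 in females. Onecut1 was also higher in females than in males after dexamethasone (2.69 ± 0.49, limma adjusted p = 0.0186), and with slide as a block this call was lost (adjusted p = 0.225). Leaving out any male dexamethasone array, or replicate 1 or 2 of the dexamethasone-treated females, ended that call (adjusted p up to 0.0856 without female dexamethasone replicate 2).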
